A study of Mus musculus with 468 samples.

Results

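The 8 genes described here encode proteins that coat lipid droplets or help to build them: Plin2, Plin3, Plin4, Plin5, Cidec, Bscl2, Fitm2 and Hilpda. They were taken by gene symbol from the 23180 genes of the count table, and all 8 were found and passed the filter on low counts, which 18380 genes passed. The libraries, 1 from each of 468 Diversity Outbred mice (a stock bred by random mating from inbred founder strains), hold RNA of adipose tissue, and the study's methods name the gonadal fat pad as the depot. All mice were fed a high-fat, high-sugar diet (45 percent fat in the labels), no mouse on another diet was included, and all libraries formed 1 group. The labels give mouse and library numbers but no sex, age, generation or batch. Bulk RNA of a whole fat pad mixes adipocytes with macrophages and other cells, and fewer cells of a type and less RNA per cell cannot be told apart in it.

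Fat is stored in droplets with a core of triglyceride under a single layer of phospholipid. Perilipins cover the surface and control the access of lipases, CIDE proteins such as Cidec pass lipid between droplets until a large droplet is formed, and seipin (Bscl2) and Fitm2 act in the endoplasmic reticulum, where new droplets bud, so that neither of the latter is a coat protein in the strict sense. Plin1, the main coat of the adipocyte droplet, is not among the 8 genes and is given below with other droplet genes. Adipocytes hold most of the droplets of fat tissue, whereas macrophages that take up lipid also form droplets, with Plin2 as a well-known coat.

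Perilipin and fatty acid oxidation genes are textbook targets of the PPAR nuclear receptors, and Hilpda is a textbook target of the hypoxia-inducible factors. The 250 bases before the RefSeq start sites (GRCm38.p6) were therefore searched on both strands. The letters sought were AGGTCA, the core of a nuclear receptor site, and ACGTG, a form of the core of a hypoxia response element. Other forms of these cores were not searched, so a gene without a match may still hold such a form. All 8 genes had at least 1 window, 13 windows in all. AGGTCA stood in 3 of the 13, those of Plin2, Plin5 and Bscl2, and in 14.0% of the 32851 windows of all genes. ACGTG stood in 1 of the 13, that of Hilpda, and in 16.6% of all windows. The parts of the Plin2 and Plin5 windows that lie before the annotated gene, and a short stretch around the Hilpda match, are shown because Pparg and a score of hypoxia genes were set against these genes below. Capitals mark the match, read on the strand of the gene, and in Plin2 the match lies on the other strand.
Plin2, chr4:86670061-86670309, minus strand: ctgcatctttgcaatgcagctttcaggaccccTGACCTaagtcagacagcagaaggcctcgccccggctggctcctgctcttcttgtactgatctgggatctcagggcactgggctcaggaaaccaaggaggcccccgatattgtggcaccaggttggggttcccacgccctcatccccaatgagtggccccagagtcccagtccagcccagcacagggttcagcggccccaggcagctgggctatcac
Plin5, chr17:56117597-56117798, minus strand: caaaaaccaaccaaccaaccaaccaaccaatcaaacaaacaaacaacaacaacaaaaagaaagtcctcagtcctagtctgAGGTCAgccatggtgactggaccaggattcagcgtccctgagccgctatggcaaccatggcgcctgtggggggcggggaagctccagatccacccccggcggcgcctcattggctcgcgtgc
Hilpda, chr6:29272571-29272599, plus strand: gatggccagcggACGTGccccagggcgag
The matches of Plin2 and Plin5 lay 217 and 122 bases before the start of the annotated gene. The Hilpda match lay 95 bases inside the annotated gene, in an exon of 1 of its 2 transcripts and 39 bases before the other start site. Such matches describe letters, and binding was not measured.

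Total counts ranged from 35.3 to 138 M counts (M for mega) per library with a median of 82.0 M. The labelled tissue was visible in the data: all 16 adipocyte markers were measured, and their summed level ranged from 14136 to 70099 CPM (counts per M counts of the scaled library). All 16 macrophage markers were measured too, at 330 to 6448 CPM in sum. In 241 libraries genes of the Y chromosome were counted and in 227 they were not. The set sizes equal the numbers of male and female adipose libraries that the study reports. The sets with and without Y chromosome counts are therefore read as males and females. The labels give no sex per mouse, so this reading rests on Y chromosome counts and set sizes. A value of r over all libraries takes in differences between the sets as well as relations within them. Since these 2 sets of libraries come from the data and not from the labels, most relations of the 8 genes are also given within each set, and differences between the sets were not tested. Scaling mattered too. Of the 66 relations of the 8 genes with partners and with each other that passed the test described below, total count scaling in place of TMM made 30 over 1.5 times smaller or of other sign and 12 over 1.5 times larger, and such values are given beside the main relations. The library of mouse DO283 stood apart. It had a total count of 35.3 M, the lowest of all, the lowest summed adipocyte and macrophage markers, and 171174 CPM of Svs5 (19.7% of its counts), a seminal vesicle secretory protein whose level was looked up after its values were seen. It also had the lowest values of Plin2, Cidec, Bscl2 and Fitm2, and without it Cidec with the hypoxia score (described below) was the relation whose call changed.

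The droplet-fusing protein Cidec and the adipocyte coat Plin4 were the most abundant of the 8 genes, and Plin5, the perilipin of oxidative tissues, varied the most among mice. Levels between genes were compared as mean CPM per kilobase of exon. Cidec (ENSMUSG00000030278, chr6:113424634-113435760) stood at 1194 ± 303 (SD, n = 468) on that scale, positions here and below being those of GRCm38, above Plin4 at 600 ± 181 in 468 of 468 libraries. Plin4 (ENSMUSG00000002831, chr17:56100591-56109803) in turn exceeded Plin2 (165 ± 71.5) in 455 libraries. Below these came Fitm2 at 58.5 ± 14.5 and Bscl2 at 36.0 ± 8.66, which kept that order in 462 libraries. Plin5 (15.6 ± 12.4) and Plin3 (14.9 ± 3.18) did not separate, since Plin5 was the higher in 197 of the 468 libraries. Hilpda was the lowest of the 8 at 5.94 ± 3.14, below Plin3 in 459 libraries. The gene models of Plin4, Bscl2 and Fitm2 overlap those of Hdgfl2, of Gng3 and AC129217.1, and of 2310001K24Rik, and no use of strand in counting is stated, so reads in the shared stretches cannot be assigned with certainty.

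**Figure D1:**
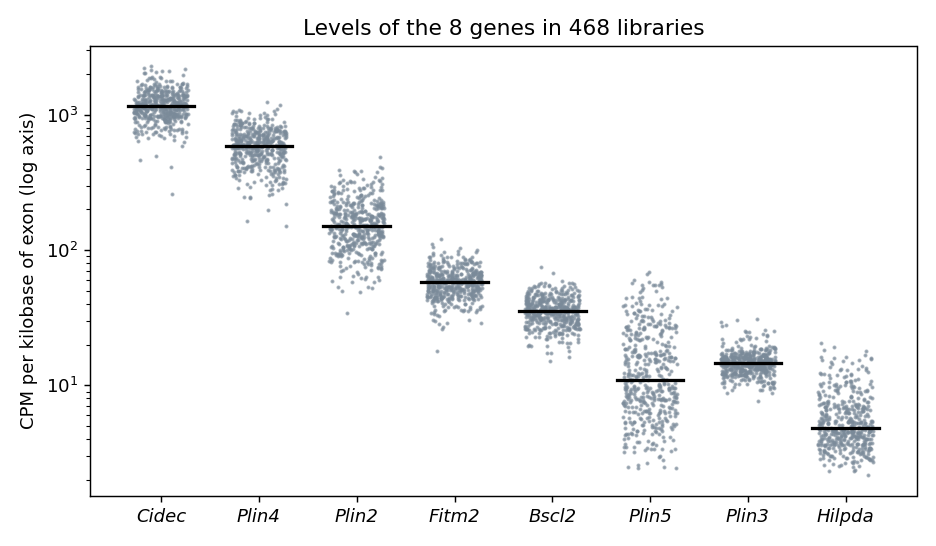
Level of each of the 8 genes in CPM per kilobase of exon on a log axis, 1 point per library (n = 468), with a bar at the median. Cidec and Plin4 lie above the others, and Plin5 has the widest spread, with a tail that passes the levels of Plin3 in 197 libraries.

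In CPM per gene, Plin2 (ENSMUSG00000028494, chr4:86648386-86670060), the coat found in most cell types, ranged from 121 to 1703 with a median of 527. Plin3 (ENSMUSG00000024197, chr17:56277476-56292873), which moves from the cytosol onto young droplets, ranged from 29.0 to 116 with a median of 55.1. The highest Plin2 library thus stood 14.1-fold above the lowest, against 4.01-fold for Plin3. Plin4 ran from 876 to 7152 CPM around a median of 3410, and Cidec from 479 to 4229 with a median of 2170. The seipin gene Bscl2 (ENSMUSG00000071657, chr19:8837467-8848683) ran from 88.8 to 443 CPM around a median of 209, and Fitm2 (ENSMUSG00000048486, chr2:163466379-163472629), which acts in droplet budding, from 71.0 to 477 with a median of 228. These 4 genes spread by similar shares of their means, with coefficients of variation of 24.0 to 30.1%. Plin5 (ENSMUSG00000011305, chr17:56111601-56117596), which tethers droplets to mitochondria, ran from 5.09 to 144 CPM around a median of 22.7. Hilpda (ENSMUSG00000043421, chr6:29272488-29275446), an inhibitor of the lipase Pnpla2, ran from 2.39 to 22.9 CPM around a median of 5.31. The coefficient of variation was 79.9% for Plin5, 52.8% for Hilpda, 43.5% for Plin2 and 21.4% for Plin3, where the median was 19.4% over the 9508 genes whose mean reached 10 CPM. Hilpda, with a mean of 6.55 CPM, is not among those genes. Over all 18380 genes past the filter the median was 33.4%.

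The 8 genes divided into 5 that followed the adipocyte hormone Adipoq and 3 that followed Adgre1, the macrophage surface protein F4/80. Correlations (r, of log2 CPM over 468 libraries) with these 2 genes defined the division and are given as a description with no test. Both values of a pair come from the same library and share its scaling. Plin4 (0.511 with Adipoq, -0.219 with Adgre1), Cidec (0.449 and 0.00273), Bscl2 (0.313 and -0.302), Fitm2 (0.562 and -0.575) and Plin5 (0.134 and -0.373) were adipocyte-linked. Plin2 (-0.319 and 0.361), Plin3 (-0.254 and 0.0947) and Hilpda (-0.360 and 0.607) were macrophage-linked. The places of Fitm2 and Hilpda were the most distinct, while Plin3, Cidec and Plin5 lay closest to the boundary. Over all genes r ran from -0.443 to 0.408 with Adipoq and from -0.566 to 0.665 with Adgre1 between the 5th and 95th percentiles.

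**Figure D2:**
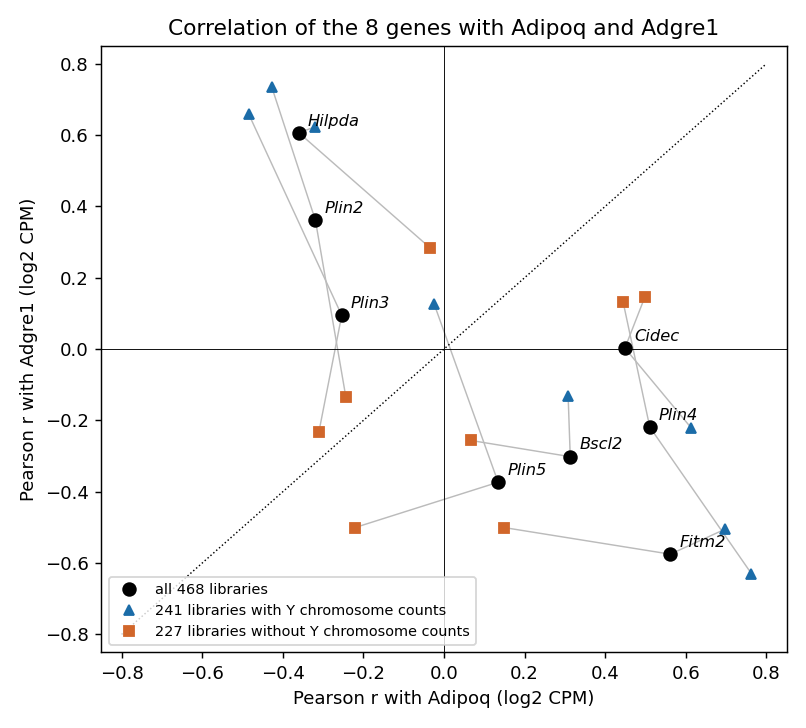
Correlation r of each of the 8 genes with Adipoq (horizontal axis) and with Adgre1 (vertical axis), over all 468 libraries and within the libraries with and without Y chromosome counts. Fitm2 and Hilpda lie at opposite ends over all libraries, whereas Plin2 goes from 0.734 with Adgre1 in the libraries with Y chromosome counts to -0.135 in those without.

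The division held within each set of libraries for Plin4, Cidec, Bscl2, Fitm2 and Hilpda. It did not for Plin2, Plin3 and Plin5. In the 241 libraries with Y chromosome counts, r with Adgre1 was 0.734 for Plin2 and 0.658 for Plin3, and in the 227 without them it was -0.135 and -0.233. Plin5 had a negative r with Adipoq in both sets (-0.0244 and -0.221) and also when libraries were scaled by total count (-0.0795), so its positive value rests on the pooling of the sets and on the scaling. The value of Plin4 with Adgre1 likewise went from -0.630 in the libraries with Y chromosome counts to 0.131 in those without, and was 0.0140 under total count scaling. Cidec with Adgre1, close to 0 when pooled, was -0.221 and 0.147 in the 2 sets.

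Plin2, Plin3 and Hilpda were next set against genes that the division had not used. Lep encodes leptin, the hormone whose transcript rises with fat cell size, and Trem2 marks lipid-laden macrophages of obese fat. The test was limma on log2 CPM with the partner as covariate, and its adjusted p is over all genes tested (Benjamini-Hochberg). Over all genes r ran from -0.620 to 0.628 with Lep and from -0.384 to 0.419 with Trem2 between the 5th and 95th percentiles. The pooled values of the 3 genes with Lep and Trem2 lie within these ranges. Hilpda rose with Lep at r = 0.520 (limma adjusted p = 2.98e-33), and within the sets at 0.519 and 0.296 (limma adjusted p = 2.68e-17 and 1.28e-05). Plin2 rose with Lep at 0.268 (limma adjusted p = 6.95e-09), which was 0.623 in the libraries with Y chromosome counts (limma adjusted p = 2.47e-26) and 0.0716 in those without (limma adjusted p = 0.341). Plin3 had an r of 0.110 over all libraries (0.382 under total count scaling), 0.704 in the first set and -0.00970 in the second (limma adjusted p = 0.0228, 8.08e-36 and 0.905). The 3 genes therefore moved with Lep in the libraries with Y chromosome counts, and of the 3 only Hilpda passed the test in both sets.

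Hilpda rose with Trem2 at r = 0.371 (limma adjusted p = 6.19e-16), with 0.366 and 0.152 in the 2 sets (limma adjusted p = 2.99e-08 and 0.0546). For Plin2 the relation was 0.143 over all libraries (0.234 under total count scaling), 0.443 in those with Y chromosome counts and -0.195 in those without (limma adjusted p = 0.00333, 6.61e-12 and 0.0112), so both sets passed the test in opposite directions. Plin3 did the same at 0.318 and -0.282 (limma adjusted p = 2.24e-06 and 0.000161). Its pooled value, -0.0862 (limma adjusted p = 0.0874), became 0.132 under total count scaling. When Adipoq and Adgre1 were held constant, the Trem2 relation was 0.107 for Hilpda and -0.0458 for Plin2 (limma adjusted p = 0.0715 and 0.505). That of Plin3 was -0.164 (limma adjusted p = 0.00355). The Lep relation was then 0.254 for Hilpda, 0.0737 for Plin2 and 0.0684 for Plin3 (limma adjusted p = 7.16e-08, 0.144 and 0.178).

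**Figure D3:**
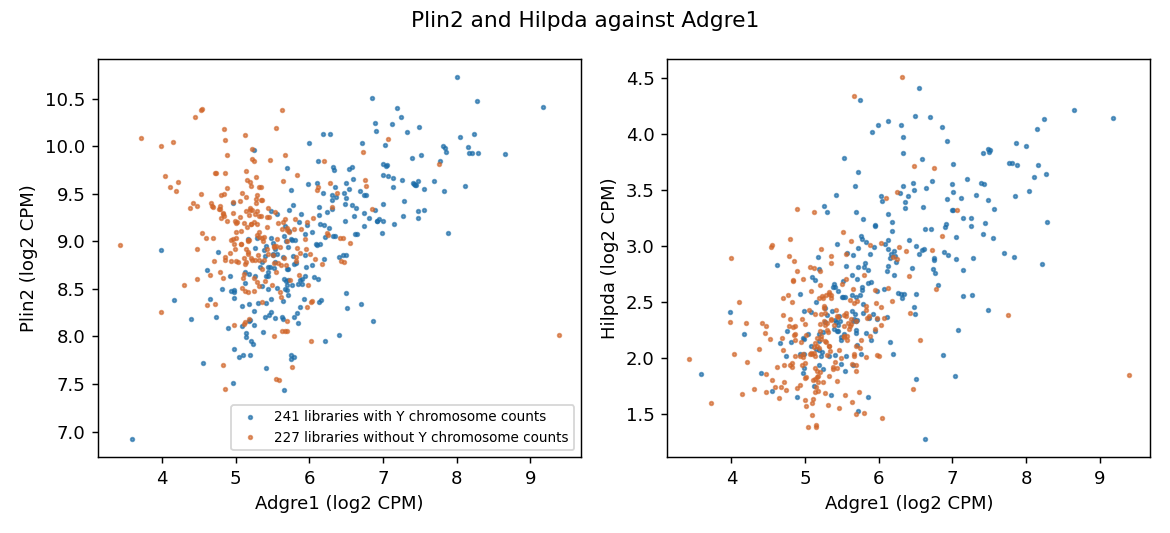
Plin2 (left) and Hilpda (right) against the macrophage gene Adgre1, both axes in log2 CPM, 1 point per library and colour for the libraries with (n = 241) and without (n = 227) Y chromosome counts. Plin2 rises with Adgre1 in the first set (r = 0.734) and not in the second (r = -0.135), and Hilpda rises in both (0.623 and 0.284).

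Hilpda did not rise with the hypoxia genes. The score, the mean z-scored log2 CPM of 16 genes such as Vegfa, Slc2a1 and Pgk1, had an r of -0.264 with Hilpda over all libraries (limma adjusted p = 1.39e-08), -0.143 under total count scaling, and of -0.131 and -0.0403 within the sets (limma adjusted p = 0.0854 and 0.600). With Adipoq and Adgre1 held constant it was 0.0526 (limma adjusted p = 0.310). Of the 29 other droplet genes given below, 18 rose and 5 fell with this score, where 36.5% of all genes rose and 41.5% fell. Cidea had the highest value (r = 0.756). Whether the score follows hypoxia in these libraries was not tested. The 5 genes most like Hilpda among those whose mean reached 10 CPM were Cstb (r = 0.716), Atp6v0a1 (0.705), Cd300lb (0.704), Cd68 (0.700) and Atp6v0d2 (0.697). Cd68 is a macrophage lysosomal protein, Atp6v0a1 and Atp6v0d2 are subunits of the proton pump that acidifies lysosomes, and Cstb inhibits lysosomal cathepsins. Their r with Hilpda was 0.666 to 0.695 in the first set and 0.467 to 0.590 in the second.

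Plin2 was most like Atp6v1a (r = 0.753), another subunit of that pump, followed by Srxn1 (0.736), which repairs oxidized peroxiredoxins, the lysosomal proteases Ctsz (0.736) and Ctsd (0.718), and the kinase gene Uhmk1 (0.710). These 5 relations kept an r of 0.498 to 0.694 in the libraries without Y chromosome counts, where that with Adgre1 was negative. Among the genes most like Plin3 were Sept9 (0.673), Armc1 (0.671), 1110008P14Rik (0.660) and Mtx2 (0.652), none of which is a droplet gene of the list used here. Plin2 and Plin3 rose together at 0.600 (limma adjusted p = 7.28e-45), with 0.674 and 0.574 in the 2 sets, and Plin2 and Hilpda at 0.434 (limma adjusted p = 1.20e-21), with 0.650 and 0.261. The 5 libraries highest in Plin2 (1354 to 1703 CPM) had at most 46.9 CPM of Ucp1, the uncoupling protein of heat-producing fat. The 5 highest in Plin3 (104 to 116 CPM) had 1625 to 3123 CPM of Ucp1, against a median of 12.7. These highest libraries were not compared within the sets, and both genes rose with Ucp1 in each set, as given below.

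Plin4 and Cidec formed a pair with r = 0.598 (limma adjusted p = 6.18e-44), and 0.656 and 0.431 in the 2 sets. Plin4 was most like Aoc3 (r = 0.809), an amine oxidase of the adipocyte surface, then Fgfrl1 (0.768), Atp9a (0.750), Phldb1 (0.741) and Fry (0.713). Among the genes most like Cidec were Cavin2 (0.672), a protein of caveolae, Ano10 (0.660), Gstz1 (0.637) and Syap1 (0.629). All of these were also positive in both sets, from 0.392 to 0.867. Plin4 fell as Plin2 rose (r = -0.368, limma adjusted p = 2.41e-15), and the sets gave -0.457 and -0.203. Plin4 and Plin5 are neighbours on chromosome 17, and their r was -0.244 (limma adjusted p = 4.34e-07), with -0.105 and -0.189 in the sets and -0.422 under total count scaling.

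Neither Plin4 nor Cidec kept its direction with the oxidation and hypoxia scores across the 2 sets. With the hypoxia score, Cidec stood at r = -0.0787 (limma adjusted p = 0.110), and at -0.121 without the library of mouse DO283 (limma adjusted p = 0.0123). The sets gave 0.299 and -0.152 for Cidec and 0.361 and -0.348 for Plin4, whose pooled value was -0.171. With the fatty acid oxidation score (17 genes, among them Hadha, Acadm and Cpt1b), Plin4 stood at r = -0.181 over all libraries, 0.390 in those with Y chromosome counts and -0.300 in those without (limma adjusted p = 0.000122, 2.74e-09 and 8.97e-06). Cidec stood at -0.139, 0.423 and -0.280 (limma adjusted p = 0.00361, 7.23e-11 and 3.75e-05). Both therefore passed the test in each set in opposite directions. Total count scaling gave larger negative values with that score, -0.421 for Plin4 and -0.467 for Cidec. With Ucp1 both were negative throughout, Plin4 at -0.313 (-0.226 and -0.224 in the sets, -0.491 under total count scaling) and Cidec at -0.271 (-0.106 and -0.300, -0.506 under total count scaling). Of these values, that of Cidec in the libraries with Y chromosome counts did not pass (limma adjusted p = 0.254). Plin4 with Lep was 0.198 when pooled (0.342 under total count scaling) and again took opposite signs, -0.197 and 0.421, in the sets (limma adjusted p = 2.72e-05, 0.00384 and 1.89e-10).

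The genes of the endoplasmic reticulum, Bscl2 and Fitm2, rose together at r = 0.608 (limma adjusted p = 1.47e-46), with 0.505 and 0.611 in the sets and 0.381 under total count scaling. Fitm2 had close companions: Pde3b (r = 0.856), a phosphodiesterase through which insulin restrains lipolysis, Pnpla2 (0.849), the first lipase of triglyceride breakdown, Scp2 (0.849), Aldh6a1 (0.833) and Cluh (0.831). Within both sets these 5 relations were between 0.803 and 0.870. Bscl2 was most like Slc25a1 (0.726), the mitochondrial citrate carrier that feeds lipid synthesis, Clptm1 (0.719), Dgat1 (0.718), which makes triglyceride, Taldo1 (0.715) and Pex13 (0.713). Their values in the sets ran from 0.618 to 0.739.

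Pparg, the nuclear receptor that drives fat cell differentiation, rose with Fitm2 at r = 0.605 (0.462 and 0.598 in the sets) and with Bscl2 at 0.548 (0.432 and 0.499), with limma adjusted p = 1.06e-46 and 5.88e-37. Under total count scaling these relations were smaller, 0.339 and 0.284. Fitm2 fell as Lep rose, at -0.591 (limma adjusted p = 1.20e-44), and the sets gave -0.427 and -0.597. It rose with the fatty acid oxidation score at 0.683 (limma adjusted p = 1.04e-64), with 0.741 and 0.675 in the sets and 0.429 under total count scaling. These pooled values with Lep and the score lie within the 5th to 95th percentiles of all genes (-0.620 to 0.628 and -0.602 to 0.716). With Ucp1 the r of Fitm2, 0.465 (0.240 under total count scaling), was 0.579 in the set without Y chromosome counts and 0.0200 in the other (limma adjusted p = 7.52e-26, 8.82e-21 and 0.862).

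Of the 8 genes, Plin5 had the highest r with Ucp1 over all libraries and in both sets. It also had the highest r with the fatty acid oxidation score over all libraries and in those without Y chromosome counts, whereas in those with them Fitm2 (0.741) and Bscl2 (0.556) exceeded Plin5 (0.517). It rose with Ucp1 at r = 0.791 (limma adjusted p = 2.71e-100), and at 0.451 and 0.828 in the libraries with and without Y chromosome counts (limma adjusted p = 1.66e-10 and 6.38e-57). With the fatty acid oxidation score r was 0.848 (limma adjusted p = 1.37e-129), and 0.517 and 0.881 in the sets. Spearman's rho for these 2 relations was 0.782 and 0.809, and r without the 2 libraries farthest from the partner's median was 0.788 and 0.844. The direction did not depend on the scaling, since total count scaling gave 0.764 and 0.811. Ucp1 itself ranged from 0.0568 to 4590 CPM, and the 5 libraries highest in Plin5 (120 to 144 CPM) held 1928 to 3123 CPM of it. The same mouse, DO237, was highest in both Plin5 and Plin3. The 11 skeletal muscle markers, summed, ran from 3.75 to 6690 CPM and had an r of -0.132 with Plin5, and without the 10% of libraries highest in them r with Ucp1 was 0.785.

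**Figure D4:**
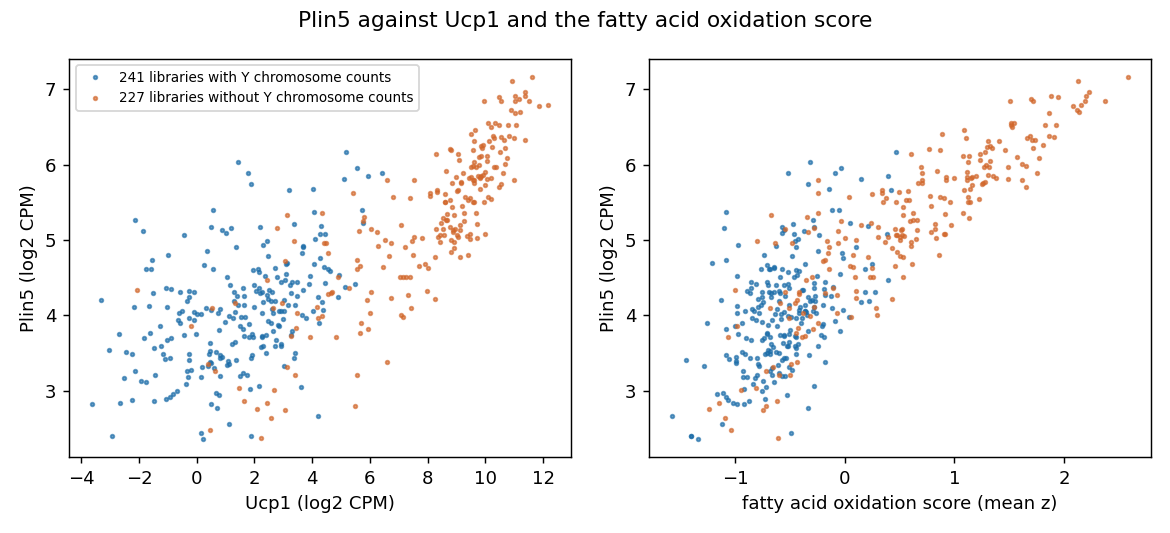
Plin5 against Ucp1 (left, both in log2 CPM) and against the fatty acid oxidation score (right, mean z-scored log2 CPM of 17 genes), 1 point per library and colour for the libraries with (n = 241) and without (n = 227) Y chromosome counts. Plin5 rises with both measures in each set, at r = 0.451 and 0.517 in the libraries with Y chromosome counts and at 0.828 and 0.881 in those without.

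The 5 genes most like Plin5 were Cpt1b (r = 0.852), which admits fatty acids to mitochondria, Hadhb (0.843), Hadha (0.841), Acaa2 (0.841) and Etfdh (0.840), all enzymes of fatty acid oxidation. These 5 genes also belong to the score. Plin5 rose with Pparg at 0.567 (limma adjusted p = 4.84e-40), with 0.206 and 0.535 in the sets and 0.371 under total count scaling. Its r with the hypoxia score, 0.670 when pooled and 0.376 under total count scaling, was 0.715 in the set without Y chromosome counts and 0.117 in the other (limma adjusted p = 4.77e-61, 1.06e-35 and 0.129). Plin5 also rose with Plin2 at 0.413 (0.389 and 0.563 in the sets, 0.274 under total count scaling) and with Plin3 at 0.461 (0.184 and 0.544, and 0.141), both of which the division had placed on the other side. With Fitm2 it rose at 0.505 (0.197 and 0.569, and 0.260).

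Plin2 and Plin3 had pooled relations with the oxidation and hypoxia scores that did not hold in the libraries with Y chromosome counts. With the oxidation score Plin3 stood at r = 0.441 over all libraries, -0.169 in those with Y chromosome counts and 0.605 in those without (limma adjusted p = 3.14e-23, 0.0158 and 2.54e-23), so the 2 sets passed the test in opposite directions. Plin2 stood at 0.263, 0.0536 and 0.512 (limma adjusted p = 1.25e-08, 0.487 and 5.09e-16). Under total count scaling neither passed, at 0.00684 for Plin3 and 0.0405 for Plin2. With the hypoxia score both genes passed in opposite directions, Plin2 at -0.214 and 0.441 in the sets (limma adjusted p = 0.00301 and 9.53e-12) and Plin3 at -0.309 and 0.558 (limma adjusted p = 1.07e-05 and 3.16e-19). Their pooled hypoxia values of 0.179 and 0.385 were -0.0243 and 0.138 under total count scaling. With Ucp1 they rose in both sets, Plin2 at 0.285 and 0.386 and Plin3 at 0.226 and 0.493. The pooled Ucp1 values, 0.242 and 0.417, were 0.0852 and 0.0859 under total count scaling and no longer passed (limma adjusted p = 0.0758 and 0.0737).

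Since most genes varied with most partners in 468 libraries, counts of the 8 genes past the threshold (limma adjusted p under 0.05) carry little beyond the sizes above. With Pparg, 6 of the 8 rose and 1 (Hilpda) fell, where 75.0% of all genes passed, and under total count scaling Cidec stood at -0.00473 and Plin3 went from 0.392 to 0.0721 (limma adjusted p = 0.931 and 0.146). The fall of Hilpda, at r = -0.179, passed in neither set (0.129 and -0.0291, limma adjusted p = 0.0871 and 0.717) and was 0.0520 with Xist and Y chromosome genes held constant. With Lep 5 rose and 3 fell (80.0% of all genes), with Ucp1 5 rose and 3 fell (78.8%), and with Trem2 2 rose and 3 fell (67.5%). Hilpda was among those that fell with Ucp1, at -0.332, although it rose in the libraries with Y chromosome counts (0.237) and fell in those without (-0.197). The hypoxia score had 5 up and 2 down (78.1%), and the fatty acid oxidation score 5 up and 3 down (81.9%). Of the 48 relations of the 8 genes with these 6 partners, 43 had a two-sided permutation p under 0.05 for r and 42 for Spearman's rho, and 34 and 33 had the smallest p that 100000 resamples can give, 1e-05. Without the 2 libraries farthest from the partner's median, Cidec with Pparg (r = 0.0845) no longer passed limma. Plin2 with the hypoxia score and Cidec with Pparg did not pass by Spearman's rho (0.0486 and 0.0476).

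In the libraries with Y chromosome counts, 6 of the 8 genes passed with Pparg (47.1% of all genes), 6 with Lep (67.4%), 5 with Ucp1 (16.9%), 6 with Trem2 (53.1%), 6 with the hypoxia score (42.8%) and 7 with the oxidation score (60.3%). In the libraries without them the counts were 5 with Pparg (66.0%), 6 with Lep (67.5%), 8 with Ucp1 (69.2%), 4 with Trem2 (38.8%), 7 with the hypoxia score (71.0%) and 7 with the oxidation score (73.4%). The count with Ucp1 in the first set, 5 of 8 against 16.9%, was the farthest from the share over all genes. Those 5 genes were Plin2, Plin3, Plin5 and Hilpda, which rose (r = 0.285, 0.226, 0.451 and 0.237), and Plin4, which fell (-0.226).

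**Figure D5:**
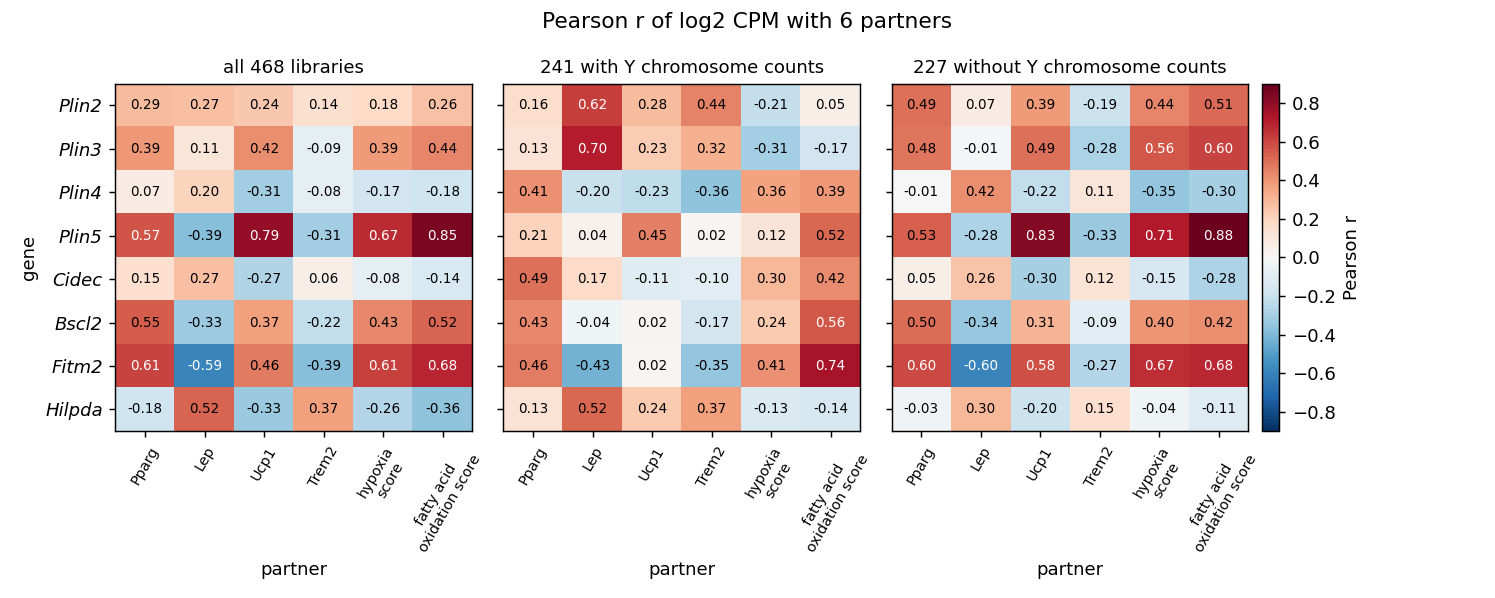
Correlation r of the 8 genes (rows) with the 6 partners that the division did not use (columns), over all 468 libraries and within the libraries with and without Y chromosome counts, as colour and printed value. Plin5 with Ucp1 and the oxidation score is positive in all 3 panels, whereas the hypoxia and oxidation values of Plin4 and Cidec change sign between the 2 sets.

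Of the 28 pairs among the 8 genes, 23 had a permutation p under 0.05 for r and 23 for rho, 16 and 15 of them at the smallest p of 1e-05. The same number of pairs, 23, passed limma. Plin5 passed with all 7 others, where 76.2% of all genes passed with it, but its r with Hilpda, -0.181 when pooled, was 0.166 and 0.000415 in the sets. Plin3 (60.6%), Cidec (55.6%), Bscl2 (71.7%) and Hilpda (73.0%) each passed with 6, and Plin2 (67.4%), Plin4 (57.8%) and Fitm2 (79.8%) with 5. Some pairs that did not pass over all libraries passed within each set. Plin3 and Fitm2 stood at -0.0156 over all libraries, -0.444 in those with Y chromosome counts and 0.170 in those without (limma adjusted p = 0.786, 2.25e-12 and 0.0192), and -0.4998 under total count scaling. Plin2 and Fitm2 stood at -0.00928, -0.242 and 0.261 (limma adjusted p = 0.868, 0.000280 and 0.000206), and at -0.280 under total count scaling. Plin4 and Fitm2, at 0.266 when pooled, had 0.694 in the first set and -0.0598 in the second (limma adjusted p = 2.95e-08, 2.67e-34 and 0.488). The negative relation of Fitm2 and Hilpda, -0.368 (-0.313 and -0.175 in the sets), was 0.00255 once Adipoq and Adgre1 were held constant.

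The wider droplet machinery was taken as a list of 31 other genes of coating, synthesis and breakdown, of which 29 were measured and tested, over all libraries only. With the oxidation score 19 rose and 5 fell, where 37.6% of all genes rose and 44.3% fell, and the median r was 0.445 against -0.0363 over all genes. Cidea (0.942), a relative of Cidec known from brown fat, Gpat4 (0.755) and Ldah (0.740) had the highest values, and Lpcat1 (-0.578), Mettl7b (-0.291) and Faf2 (-0.152) the lowest. Over all libraries Cidea and Cidec thus went apart, and Cidea had the lowest r of the list with Cidec itself (-0.236, limma adjusted p = 1.25e-06). Cidec, however, rose with the score in the libraries with Y chromosome counts (0.423), and Cidea was not examined within the sets. With Lep 8 rose and 16 fell, where 39.8% of all genes rose and 40.2% fell (median -0.172 against -0.000435), from Dgat2 (0.579), Lpcat1 (0.561) and Pcyt1a (0.512) down to Pnpla2 (-0.615), Gpat4 (-0.721) and Mettl7a1 (-0.726). With Pparg 21 rose and 2 fell, where 34.3% of all genes rose and 40.7% fell (median 0.357 against -0.0256). The share of the list that passed in either direction was near that of all genes for the oxidation score, for Lep and for Pparg.

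The 8 genes had different neighbours in that list. Plin4 was closest to Plin1 (r = 0.571), the hormone-sensitive lipase Lipe (0.567) and the monoglyceride lipase Mgll (0.423), and Cidec to Mgll (0.563), Lipe (0.410) and Plin1 (0.391). Plin5 was closest to Cidea (0.805), Agpat2 (0.648) and Ldah (0.608). Bscl2 was closest to Dgat1 (0.718), Abhd5 (0.650), the coactivator of Pnpla2, and Agpat2 (0.610), which like Bscl2 is mutated in inherited lipodystrophy. Fitm2 was closest to Pnpla2 (0.849), Lipe (0.785) and Gpat4 (0.782). Pcyt1a, which supplies phospholipid to growing droplets, led for Plin2 (0.697) and Plin3 (0.614), and was next to Faf2 (0.459) for Hilpda (0.457).

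Among the orders that the labels give, mouse number (21 to 560) was related to 1 of the 8 genes, where 23.9% of all genes passed (edgeR adjusted p under 0.05). Hilpda rose by 0.08 ± 0.02 (SE) on the log2 scale per 100 mouse numbers (edgeR adjusted p = 0.00102). With Xist and Y chromosome genes as covariates, the slope was 0.04 and no longer passed (edgeR adjusted p = 0.116). Fitm2 had a slope of -0.03 ± 0.01 (edgeR adjusted p = 0.0591). Of the 29 other droplet genes, 6 rose with mouse number (Cideb, G0s2, Dgat2, Acsl3, Faf2 and Hsd17b13) and 3 fell (Gpat4, Lpin1 and Mettl7a1). Of all 18380 genes tested, 2219 rose and 2175 fell. These calls were made without Xist and Y chromosome genes as covariates. With them, the calls over all genes went from 4394 to 2269, and those of the 29 genes are not given here. With library number (219 to 701) 0 of the 8 genes passed, where 0.267% of all genes did. At an unadjusted edgeR p under 0.05 there was 1, Plin3 (p = 0.0249), and DESeq2 and limma also called 0 of the 8.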

How the data were processed

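RNA of adipose tissue from 468 mice, 1 library each, was sequenced by the study from polyadenylated RNA. The authors deposited expected counts per gene, estimated by EMASE run through GBRS on a transcriptome that joins the founder strains, and 66.8% of the values were whole within 1e-06. They also deposited log2-scale values from the variance stabilizing transformation (VST) of DESeq2, used here as an alternative. Not given in the sources used here are the versions of EMASE and GBRS and whether counting used strand. GRCm38 is named in the submitters' processing notes.

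From these files, expected counts were scaled by TMM (factors 0.580 to 1.37) in edgeR 4.0.16 (R 4.3.3), and were rounded only for the edgeR and DESeq2 tests. Genes with at least 10 counts in at least 50% of libraries were kept, and log2 CPM used a prior count of 2. Mouse and library number were tested together by the edgeR quasi-likelihood test, and partners by limma 3.58.1 (eBayes with trend) on log2 CPM, each adjusted over all genes by Benjamini-Hochberg. Correlations used two-sided permutation tests of 100000 resamples (SciPy 1.17.1). The fits were first tested on simulated data with known changes. Alternatives covered scaling, prior count, VST values, DESeq2 1.42.0, filters, covariates, Spearman's rho, and subsets of libraries, among them 5 blocks each of consecutive library and mouse numbers (93 to 94 libraries).

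Named genes were the 8 genes, the 6 partner genes, for each of the 8 the 5 genes with the highest r among those whose mean reached 10 CPM, and the 3 highest and 3 lowest of the other droplet genes in a comparison. Some genes that this rule names are not reported here. The 8 genes and all lists were chosen with earlier results of these data known. Nothing in the labels says more than that mice were separate, so p-values measure the spread between mice with assay error included. The study adjusted for sex, generation and wave, modelled kinship and removed batch effects. None of these entered the main tests here, so p-values also take in differences of sex, relatedness and batch. Genotypes and traits were not analysed here.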

Additional observations from a re-analysis of the deposited data

How the results depend on the processing

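Of the recomputed main values, 155 were marked as unchanged and 11 as changed. The 155 were not only counts of called genes or pairs. They therefore do not give the number of such counts that stayed within 1.5 times the reported one. The 11 were all such counts and did not stay within it. The 11 were the mouse number count, 0 given Xist and the Y chromosome genes and 2 when the tenth of libraries lowest in total count was left out (Fitm2 added, edgeR adjusted p = 0.0480), the Ucp1 count, 5 in the libraries with Y chromosome counts, the Trem2 count, 3 given Adipoq and Adgre1, and the lowest counts within the blocks of 93 to 94 libraries, which were 4 for Pparg, 4 for Lep, 5 for Ucp1, 3 for Trem2, 4 for the hypoxia score, 4 for the oxidation score and 12 of the 28 pairs. Fewer libraries enter each block and set. Of the recomputed values of single relations and slopes, 1251 kept direction and side of the threshold, 87 kept the direction but no longer passed, 26 passed newly in the same direction and 112 changed sign. In 47 of the 112 neither value stood past the threshold, which for Adipoq and Adgre1 served only to sort these changes, and the other 65 are listed here. The cause of the changes of sign was not tested. Under total count scaling, the sign of r changed for Plin5 (-0.0795) with Adipoq, Plin4 (0.0140) with Adgre1, Cidec (-0.00473) with Pparg, Plin3 (0.132) with Trem2, Plin2 (-0.0243) with the hypoxia score, Bscl2 (-0.155) with Plin3 and Hilpda (0.108) with Plin4. Given Xist and the Y chromosome genes, the sign of r changed for Plin5 (-0.0940) with Adipoq, Cidec (-0.109) with Adgre1, Hilpda (0.0520) with Pparg, Hilpda (0.0276) with Ucp1 and Hilpda (0.0789) with Plin5. In the libraries with Y chromosome counts, the sign of r changed for Plin5 (-0.0244) with Adipoq, Plin5 (0.126) and Cidec (-0.221) with Adgre1, Hilpda (0.129) with Pparg, Plin4 (-0.197) and Plin5 (0.0356) with Lep, Hilpda (0.237) with Ucp1, Plin3 (0.318) and Plin5 (0.0152) with Trem2, Plin2 (-0.214), Plin3 (-0.309), Plin4 (0.361) and Cidec (0.299) with the hypoxia score, Plin3 (-0.169), Plin4 (0.390) and Cidec (0.423) with the fatty acid oxidation score, Bscl2 (-0.00445) with Plin3 and Cidec (0.116) and Hilpda (0.166) with Plin5. In the libraries without Y chromosome counts, the sign of r changed for Plin5 (-0.221) with Adipoq, Plin2 (-0.135), Plin3 (-0.233) and Plin4 (0.131) with Adgre1, Plin3 (-0.00970) with Lep, Plin2 (-0.195) with Trem2, Fitm2 (0.261) with Plin2, Fitm2 (0.170) with Plin3, Bscl2 (-0.188) and Fitm2 (-0.0598) with Plin4 and Hilpda (0.000415) with Plin5. As the highest value over the blocks, the sign of r changed for Plin4 (0.0623) with Adgre1, Plin4 (0.0234) with the hypoxia score, Cidec (0.00218) with the fatty acid oxidation score and Cidec (0.0799) with Plin3. Given Adipoq and Adgre1, the sign of r changed for Plin4 (-0.123) and Hilpda (0.0984) with Pparg, Plin2 (-0.0458) with Trem2, Hilpda (0.0526) with the hypoxia score, Fitm2 (0.360) with Plin2, Cidec (0.0111) and Fitm2 (0.157) with Plin3, Bscl2 (-0.180), Fitm2 (-0.0101) and Hilpda (0.162) with Plin4, Hilpda (0.0559) with Plin5 and Hilpda (0.00255) with Fitm2. As the lowest value over the blocks, the sign of r changed for Plin3 (-0.176) with Lep, Plin2 (-0.0251) with Trem2, Plin2 (-0.0939) with the hypoxia score, Bscl2 (-0.0254) with Plin3, Bscl2 (-0.321) with Plin4 and Bscl2 (-0.0449) and Hilpda (-0.0234) with Cidec. An alternative chosen after seeing the data, leaving out the library of mouse DO283, changed 1 call, that of Cidec with the hypoxia score (r = -0.121, limma adjusted p = 0.0123). No paired analysis was possible because the labels give 1 group and no shared replicate numbers. Depth did not limit these genes, the lowest of which, Hilpda, had at least 97 counts in every library. Intervals between mice could not be split into biological and assay error with 1 library per mouse.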
